A study of Mus musculus with 12 samples.

Results

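T cells with many transcripts of the T cell receptor beta chain were set against the other T cells of the same tumour libraries. A member was a cell barcode with exactly 1 distinct beta (TRB) chain, 1 or 2 alpha (TRA) chains, and 40 or more unique molecular identifiers (UMIs) on the beta chain. Members were thus chosen by the beta UMI count itself, which is given as a description and not tested. A UMI tags 1 captured transcript, so that this number counts beta transcripts. The rule took 2219 of 19115 paired barcodes, or 11.6%, and the other 16896 barcodes had fewer than 40. The members belonged to 965 clonotypes, which are cells of 1 library with the same beta chain and a shared alpha chain.

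The cells came from C57BL/6J mice of 6 to 8 weeks that carried subcutaneous tumours of MC38, a mouse colon carcinoma line, here a derivative labelled as lacking p53 and as carrying a p53 substitution that different labels write differently. Palpable tumours were injected on day 10 with a single dose of 40 µg of LNP-Ctrl in 1 group and LNP-P20-mAb in the other, names that the labels do not spell out, and leukocytes positive for CD45 were then sorted. All groups shared the tumour line, the day of injection and the sort. Each treatment had 3 TCR libraries made from the 5′ ends of transcripts, and the matching gene expression libraries were not analysed here. Nothing in the labels ties each of the 3 libraries of a treatment to an animal of its own, and p-values therefore reflect only how these libraries vary, which may be technical.

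An alpha-beta T cell receptor is a pair of chains, each assembled in the thymus by joining V and J segments, with a D segment between them in the beta chain. The joins form the third complementarity-determining region (CDR3), the loop that mostly contacts the peptide presented by MHC. The V segment also brings its own promoter into the joined gene, along with the first and second loops (CDR1 and CDR2), and a downstream C segment, TRBC1 or TRBC2, supplies the constant part of the beta chain. All daughters of a T cell inherit its joined chains, so a receptor carried by many cells marks an expanded clone.

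The receptors on which the results turn are printed first, 5′ to 3′ as bases of the CDR3 in the deposited files, with the centre of the loop in capitals, that is without its first 4 and last 4 codons. The first 2 are the beta and alpha loops of the clone with the most members in LNP-P20-mAb 1 and 2. Next comes the beta loop of the large clone with the highest share of members. Then follow, for 2 V segments, a pair of large clones of different libraries with the same V segment and very different shares of members. After these comes the alpha loop that recurred most widely, with 3 of the TRBV15 beta loops beside which it was found. The last is the most frequent version of a second recurring alpha loop, which was found beside TRBV1.
TRBV15 and TRBJ1-5, beta: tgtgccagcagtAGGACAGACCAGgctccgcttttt
TRAV9-2 and TRAJ48, alpha: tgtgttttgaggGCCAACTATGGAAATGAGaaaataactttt
TRBV17 and TRBJ2-7, beta: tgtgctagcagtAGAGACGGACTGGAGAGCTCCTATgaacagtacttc
TRBV13-1 in LNP-Ctrl 1, high share, beta: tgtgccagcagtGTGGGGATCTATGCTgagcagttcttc
TRBV13-1 in LNP-P20-mAb 1 and 2, no member, beta: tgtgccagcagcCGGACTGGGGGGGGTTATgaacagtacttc
TRBV12-1 in LNP-P20-mAb 1 and 2, high share, beta: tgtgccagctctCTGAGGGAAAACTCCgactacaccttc
TRBV12-1 in LNP-Ctrl 2, no member, beta: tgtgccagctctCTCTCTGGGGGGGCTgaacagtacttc
TRAV12D-3 and TRAJ5, alpha: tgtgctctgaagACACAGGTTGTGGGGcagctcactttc
TRBV15 beside it in LNP-Ctrl 1, beta: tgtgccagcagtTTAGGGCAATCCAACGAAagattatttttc
TRBV15 beside it in LNP-Ctrl 2, beta: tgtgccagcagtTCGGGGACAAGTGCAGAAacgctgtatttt
TRBV15 beside it in LNP-P20-mAb 3, beta: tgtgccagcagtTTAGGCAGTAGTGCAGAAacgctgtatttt
TRAV14-1 and TRAJ26, alpha: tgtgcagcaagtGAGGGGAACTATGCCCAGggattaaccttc

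Every library held members. Members were 589 of 3333 paired barcodes in LNP-Ctrl 1, which is 17.7% (95% exact Clopper-Pearson interval 16.4% to 19.01%). LNP-Ctrl 2 had 307 of 3923 (7.83%, interval 7.00% to 8.71%) and LNP-Ctrl 3 had 218 of 3737 (5.83%, 5.10% to 6.63%). Of the LNP-P20-mAb libraries, library 1 had 435 of 3263 (13.3%, 12.2% to 14.5%), library 2 had 361 of 2016 (17.9%, 16.3% to 19.7%) and library 3 had 309 of 2843 (10.9%, 9.75% to 12.1%). These intervals cover counting error only. The treatments overlapped in this share, and the libraries with the highest shares, LNP-Ctrl 1 and LNP-P20-mAb 2, were also those with the highest median of 21 TRB UMIs per paired barcode. The medians of LNP-Ctrl 2, LNP-Ctrl 3, LNP-P20-mAb 1 and LNP-P20-mAb 3 were 14, 15, 19 and 18. Since the share is what the rule uses, it was not tested, and members were compared with other barcodes of the same library. Shares pooled over libraries and clones of different libraries set side by side are descriptions, in which library depth does not cancel.

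Among the members the median was 48 to 51 TRB UMIs in each library, and the highest cell of each library had 117 to 197. Members held 17.7% to 39.2% of all TRB UMIs of their library. Of the 2219 members, 1915 had 1 alpha chain and 304 had 2. Pooled over the libraries, the 618 barcodes just inside the threshold with 40 to 44 TRB UMIs had a median of 10 TRA UMIs and 63.9% of them were in clonotypes of 2 or more cells, and the 833 barcodes just outside it with 35 to 39 had a median of 10 TRA UMIs and 63.1% in such clonotypes, while single libraries differed in this share in both directions.

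Invariant alpha chains that mark other T cell lineages were rare. The libraries were enriched for TCR chains and all 48781 deposited chains were TRA or TRB, so gamma-delta T cells and B cells could not be looked for. The invariant alpha chain of iNKT cells (TRAV11 or TRAV11D with TRAJ18) was on 2 members (0.0901%) and 50 other barcodes (0.296%). That of MAIT cells (TRAV1 with TRAJ33) was on 2 members and 15 other barcodes. All members carried a paired TRA and TRB chain by the rule, and no CD4, CD8 or activation state can be given from these files.

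LNP-P20-mAb 1 and 2 did not carry independent repertoires. Of the members of LNP-P20-mAb 1, 416 of 435 (95.6%) had a beta chain that was also found in LNP-P20-mAb 2, and in the reverse direction 326 of 361 members (90.3%) had one. Alpha UMIs over all cells and the expanded and large clone shares are therefore also given with this pair averaged as 1 sample. So is the treatment gap in the expanded share of members. Segment counts are also given with the pair summed or with either library left out. The remaining p-values over libraries count the pair as 2 samples. Across libraries, 46 member barcodes (380 paired barcodes in all) occurred in another library, and 1 of these shared barcodes had the same beta chain in both, with no member among its cells.

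Members had more alpha transcripts than the other cells of their library. For LNP-Ctrl 1 the median number of UMIs on the best-supported alpha chain was 14 in members and 9 in other barcodes, for LNP-Ctrl 2 it was 11 against 6, and for LNP-Ctrl 3 it was 11 against 5. The LNP-P20-mAb libraries had 10 against 7 (library 1), 10 against 8 (library 2) and 11 against 8 (library 3). Members were higher in 6 of 6 libraries, and the members' lowest median, 10, was above the other cells' highest, 9. The log2 ratio of the medians was 0.66 ± 0.30 (SD, n = 6 libraries; two-sided exact sign-flip permutation test p = 0.03125, the smallest that 6 libraries allow, adjusted p = 0.047 over 9 within-library values). With LNP-P20-mAb 1 and 2 averaged the log2 ratio was 0.71, with an exact sign-flip permutation p of 0.0625, the smallest that 5 samples allow.

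With the receptor held fixed, members were again higher in 6 of 6 libraries. In 99 clonotypes with at least 2 members and 2 other cells, the mean number of TRA UMIs was higher in the members of 92. Clones common to LNP-P20-mAb 1 and 2 count once in each library. Within clonotypes the median log2 ratio of the LNP-Ctrl libraries was 0.39, 0.88 and 0.79 and that of the LNP-P20-mAb libraries 0.51, 0.56 and 0.82 (libraries 1, 2 and 3 in order), on average 0.66 ± 0.20 (SD, n = 6; exact sign-flip permutation p = 0.03125, adjusted p = 0.047). These are ratios of means, and the ratios over all cells are of medians. The latter were 0.64, 0.87 and 1.14 in the LNP-Ctrl and 0.51, 0.32 and 0.46 in the LNP-P20-mAb libraries. Single libraries thus differed between the measures in both directions. Both chains were counted in the same droplet. The part of the cell's total RNA, of capture or of 2 cells of a clone in 1 droplet in this result was not tested.

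A second alpha chain was not measurably more frequent. In the order of their numbers, LNP-Ctrl libraries had 10.4%, 12.4% and 15.6% of members with 2 alpha chains, against 11.1%, 12.8% and 14.1% of other barcodes. LNP-P20-mAb libraries had 13.8%, 11.9% and 22.0% of members, against 7.21%, 6.77% and 24.1% of other barcodes. The difference was positive in 3 of 6 libraries, 1.67 ± 3.47 percentage points on average (SD, n = 6; exact sign-flip permutation p = 0.375). Thinned to 5 TRA UMIs per barcode, so that barcodes of unequal depth could be compared, it was -1.14 points (exact sign-flip permutation p = 0.53).

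**Figure D1:**
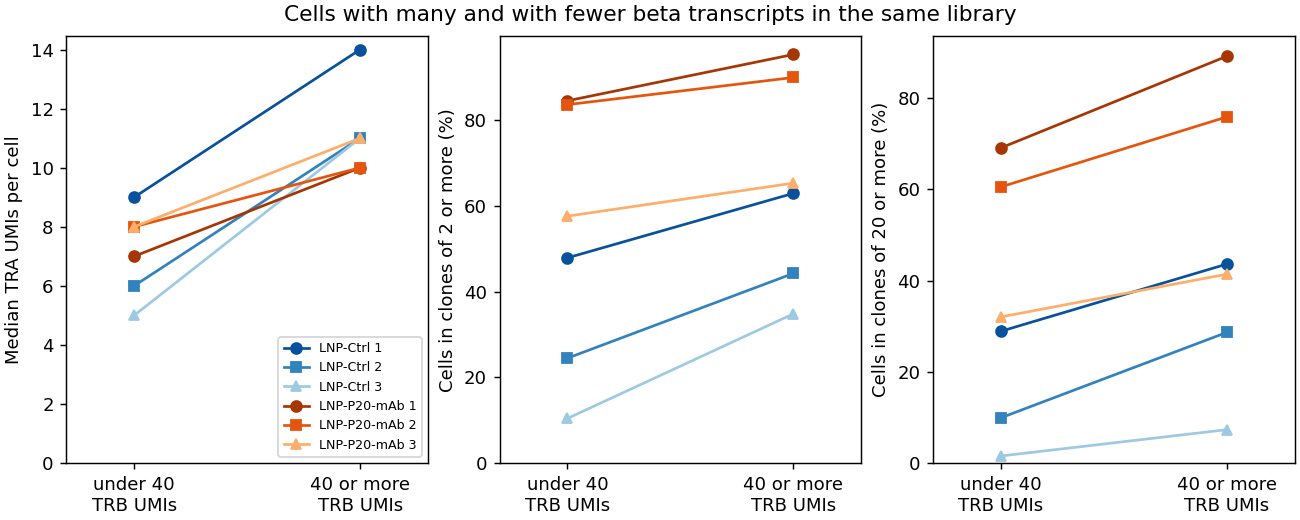
Median TRA UMIs per cell (left), percent of cells in clonotypes of 2 or more cells (centre) and of 20 or more cells (right) for cells with under 40 and with 40 or more TRB UMIs, with 1 line for each of the 6 libraries. All 6 lines rise in all 3 plots, and median TRA UMIs go from 5 to 9 in other cells to 10 to 14 in members.

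Counted by cells, members were more often part of expanded clones. Clonotypes of 2 or more cells held 63.0% of members and 47.9% of other barcodes in LNP-Ctrl 1, 44.3% and 24.5% in LNP-Ctrl 2, and 34.9% and 10.4% in LNP-Ctrl 3. In LNP-P20-mAb 1 they held 95.4% and 84.6%, in LNP-P20-mAb 2 90.03% and 83.7%, and in LNP-P20-mAb 3 65.4% and 57.7%. The member share was higher in 6 of 6 libraries, by 14.0 ± 7.10 percentage points (SD, n = 6; exact sign-flip permutation p = 0.03125, adjusted p = 0.047). Large clones of 20 or more cells held 7.34% to 89.2% of members and 1.56% to 69.1% of other barcodes, a difference of 14.0 ± 5.50 points (SD, n = 6), again higher in 6 of 6 libraries (exact sign-flip permutation p = 0.03125, adjusted p = 0.047). Averaging LNP-P20-mAb 1 and 2 gave 15.1 points for clonotypes of 2 or more cells and 13.3 points for large clones, each with an exact sign-flip permutation p of 0.0625. These shares count cells and not clones. In LNP-Ctrl 1, 2 and 3 the median large clone had 2.70%, 1.47% and 21.8% members, and single-cell clonotypes had 13.2%, 5.89% and 4.31%. LNP-Ctrl 3 had only 2 large clones. In LNP-P20-mAb 1, 2 and 3 the median was 6.90%, 9.52% and 6.25%, against 4.39%, 11.8% and 9.07%.

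The plot over classes of beta count shows these values over the whole range of TRB UMIs. Near the threshold the libraries differed. In LNP-Ctrl 3 the share of cells in clonotypes of 2 or more rose from 13.6% among barcodes with 35 to 39 TRB UMIs to 39.1% among those with 40 to 44, whereas in LNP-Ctrl 2 it was 35.04% and 27.5% and in LNP-P20-mAb 2 90% and 84.8%. Against other barcodes with the same TRBV segment, a comparison chosen after the data were seen, members remained more often expanded in all 6 libraries, by 4.53 to 21.5 points. For large clones the gap within the same TRBV segment ranged from 1.84 points in LNP-Ctrl 1 to 18.9 points in LNP-Ctrl 2. The rule keeps 2 cells of 1 clone in 1 droplet and leaves out 2 cells with different beta chains. The part of such droplets in the shares of expanded and large clones was not tested.

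**Figure D2:**
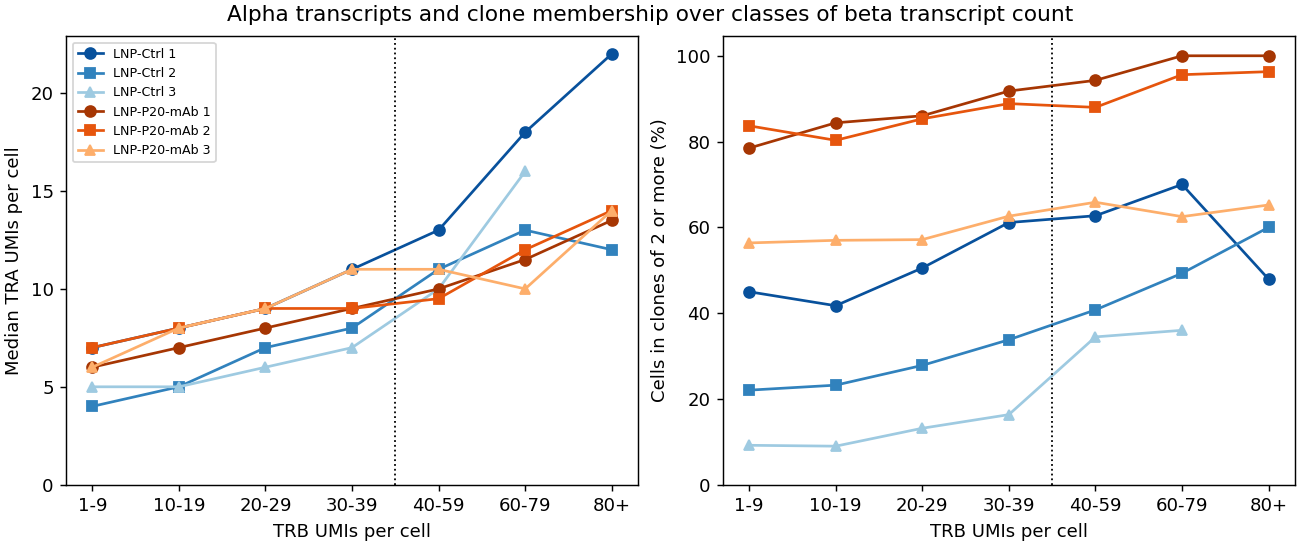
Median TRA UMIs per cell (left) and percent of cells in clonotypes of 2 or more cells (right) in classes of TRB UMIs per cell, 1 line per library, where classes under 20 cells are left out and the dotted line marks the threshold of 40. Cells with 40 to 59 TRB UMIs had a median of 9.5 to 13 TRA UMIs in the 6 libraries, and the curves pass through the threshold without a step common to all.

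The V segment of the beta chain went with the number of beta transcripts. Over clonotypes seen in a single cell, where no clone is counted more than once, 36.4% of 184 TRBV17 cells and 20.9% of 249 TRBV15 cells were members, followed by 13.3% of 405 TRBV1 cells. At the other end were TRBV12-1 with 1.83% of 602 cells, TRBV2 with 1.36% of 441 and, under a name that is discussed with the Vβ8 family, TRBV13-2 with 1 of 124 (0.806%). The same segments differed in median TRB UMIs, which were 31 for TRBV17, 26 for TRBV15, 21 for TRBV1, 11 for TRBV12-1 and 7 for TRBV2, while their median TRA UMIs lay between 5 and 7. Over all cells, TRBV15 and TRBV17 held the first and second place of the TRBV segments in member share in each of the 6 libraries, with 24.1% to 59.5% of TRBV17 cells and 21.1% to 57.9% of TRBV15 cells being members. Single clones weigh in these places, since 264 of the 266 TRBV15 cells of LNP-P20-mAb 1, 162 of 164 in LNP-P20-mAb 2 and 54 of the 78 TRBV17 cells of LNP-Ctrl 2 belonged to 1 clone each. Over all cells 12.2% of 1143 TRBV12-1 cells were members, with 32.2% and 41.4% in LNP-P20-mAb 1 and 2 and at most 2.47% in any other library. The clone with TRAV12-2 gave 74 of the 75 TRBV12-1 members of LNP-P20-mAb 1 and 53 of 53 in LNP-P20-mAb 2. Among single-cell clonotypes, in libraries with at least 10 cells of the segment, TRBV17 ranked 1 or 2 but for LNP-Ctrl 2, where it ranked 4 with 2 of 20 cells. TRBV15 likewise ranked 1 or 2 but for LNP-P20-mAb 3, where it ranked 4 with 3 of 16. In LNP-P20-mAb 1 none of 4 single-cell TRBV17 clonotypes was a member. TRBV2 was at or below 2.44% in every library over all cells and at or below 3.92% among single-cell clonotypes. Together TRBV15 and TRBV17 were on 23.3% of members and 3.83% of other barcodes.

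The promoters of these segments were not analysed here. The CDR1 and CDR2 bases that each V segment contributes were the same on all 439 chains named TRBV17, all 1177 named TRBV15 and all 797 named TRBV2. They are shown because they are what the V segments at the top and the bottom of the order add to the receptor beside the CDR3.
TRBV17 CDR1: atgaatcatgatacc
TRBV17 CDR2: tactatgataagattttg
TRBV15 CDR1: tcaggccacaatgac
TRBV15 CDR2: ttccgcagcaagtctctt
TRBV2 CDR1: ctaggccacaatgct
TRBV2 CDR2: tacagctatcaaaaactt
In the order of the RefSeq annotation (GRCm38.p6), TRBV15 and TRBV17 flank TRBV16, of whose single-cell clonotypes 9.75% were members, and TRBV14 on the other side of TRBV15 had 9.67%. TRBV19, the next functional segment after TRBV17, had 2.41%. Position in the locus and member share are given side by side, and their relation was not tested.

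**Figure D3:**
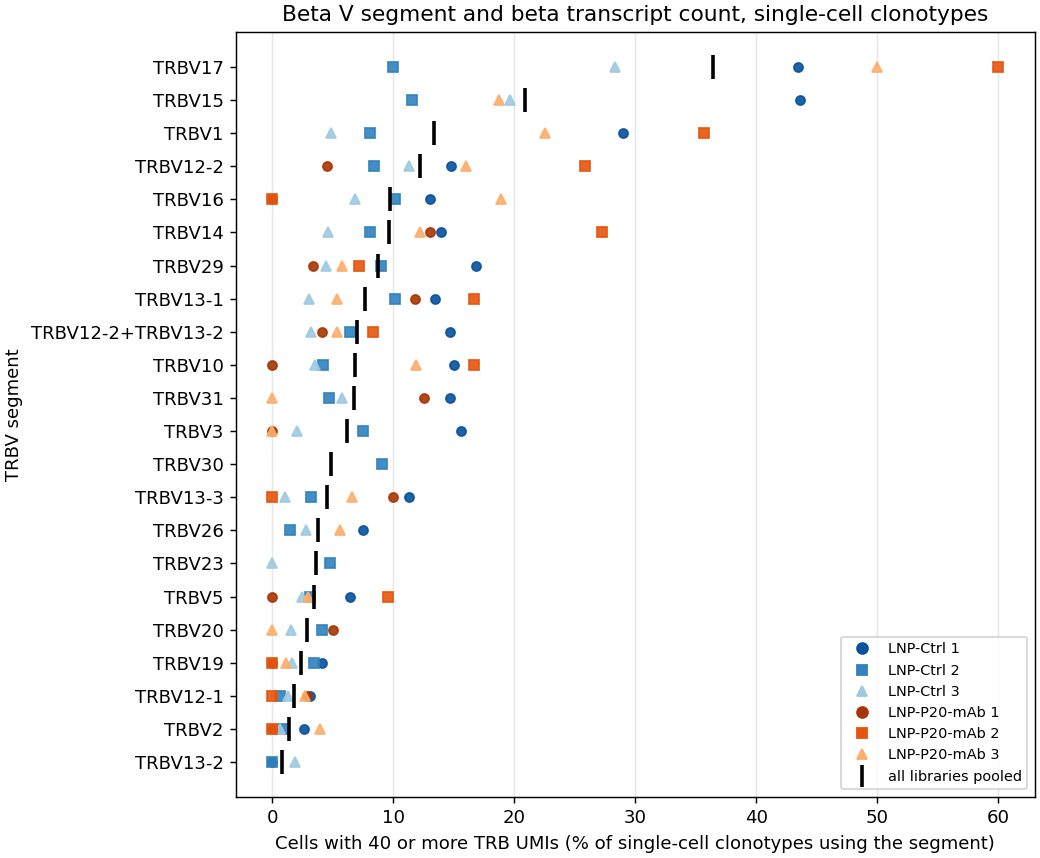
Percent of single-cell clonotypes with 40 or more TRB UMIs for each TRBV segment, where points are libraries with at least 10 such cells and black bars are all libraries pooled. TRBV17 and TRBV15 lie at the top with pooled shares of 36.4% and 20.9%, and TRBV2 lies near the bottom with 1.36%.

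Segment usage was tested on distinct clonotypes, counted once per class and library, with edgeR's quasi-likelihood test and the library as a block. Of 157 V, D, J and C segments, 17 differed between members and other barcodes at an adjusted p below 0.05 (10.8% of those tested), 7 higher in members (4.46%) and 10 lower (6.37%). Beta segments made up 16 of the 17, out of 38 tested, and 1 of 119 alpha segments was called. Since LNP-P20-mAb 1 and 2 share clonotypes, each such clonotype enters in both. With the counts of the pair summed 18 segments were called, 17 of them the same, and leaving out library 1 or library 2 of the pair gave 18 and 17 calls, of which 17 and 16 were the same. The median log2 change over all 157 segments was -0.03.

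TRBV17 rose the most of the segments called. Of member clonotypes it was in 7.02%, 1.41% and 10.4% for LNP-Ctrl 1, 2 and 3, and in 1.75%, 9.33% and 14.4% for the LNP-P20-mAb libraries in the same order, against 0.686% to 1.93% of other clonotypes. The difference was in the same direction in 6 of 6 libraries and the member range overlapped that of the others (log2 change 2.43 ± 0.24 SE; edgeR adjusted p = 1.06e-20). TRBV15 was in 7.37%, 6.10% and 13.2% of member clonotypes of the LNP-Ctrl libraries and 1.75%, 2.67% and 3.92% of those of the LNP-P20-mAb libraries, against 0.551% to 2.87% of others. It rose in 6 of 6 libraries by 1.85 ± 0.23 (log2 ± SE; edgeR adjusted p = 1.15e-13). In LNP-P20-mAb 1 TRBV15 was on 1 member and 3 other clonotypes, and in LNP-P20-mAb 2 on 2 and 2. Among these, 1 large clone shared by both libraries is counted in each library and in both classes. TRBV17 in LNP-P20-mAb 1 was on 1 member and 6 other clonotypes. TRBV1, at 5.63% to 13.3% of member clonotypes and 2.40% to 4.56% of others with no overlap of the classes, rose by 1.12 ± 0.19 (edgeR adjusted p = 1.31e-07). Its call was lost under 1 of 16 alternatives, by cells (log2 change 0.78, edgeR adjusted p = 0.137). TRBV12-2 rose by 0.66 ± 0.18 (edgeR adjusted p = 0.0044) and was higher in 5 of 6 libraries, a call lost under 4 of 16 alternatives, DESeq2 and the fit without LNP-Ctrl 3 among them.

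Of the V segments that fell, TRBV2 and TRBV12-1 fell the most beside TRBV13-2. TRBV2 was in 0.469% to 1.75% of member clonotypes and 4.06% to 5.20% of others and fell by 2.48 on the log2 scale (SE 0.37; edgeR adjusted p = 1.63e-09). TRBV12-1 was in 0.469% to 3.51% of member clonotypes and 4.68% to 9.79% of others and fell by 2.27 (SE 0.29; edgeR adjusted p = 9.53e-13). The member and other ranges did not overlap for TRBV2 or TRBV12-1. The call for TRBV12-1 was lost under 1 of 16 alternatives, by cells (log2 change -1.10 ± 0.68 SE; edgeR adjusted p = 0.34). TRBV19 fell by 1.31 (SE 0.22), TRBV5 by 1.04 (SE 0.21) and TRBV26 by 1.08 (SE 0.33), each lower in 6 of 6 libraries. The call for TRBV26 was lost under 5 of 16 alternatives, including DESeq2 and the fits without LNP-Ctrl 1 or 2. Thus TRBV12-1 and TRBV12-2, which make up the Vβ5 family, were called in opposite directions.

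The Vβ8 family showed how the naming of chains enters such a count. TRBV13-3 fell by 0.71 (SE 0.21; edgeR adjusted p = 0.013) and was lower in 5 of 6 libraries. That call was lost under 8 of 16 alternatives (adjusted p up to 0.22), including DESeq2, single-cell clonotypes and the fits without LNP-Ctrl 2, LNP-Ctrl 3 or LNP-P20-mAb 2. TRBV13-1 did not pass the test (log2 change 0.45 ± 0.17 SE; edgeR adjusted p = 0.0996), and TRBV13-2 was called lower, with 1 of 965 member clonotypes and 125 of 9915 others, a ratio of shares of 0.0822 with an exact 95% counting interval of 0.00206 to 0.466. Most chains with the CDR1 of TRBV13-2, however, bore the joint name TRBV12-2+TRBV13-2. The 1665 chains with the joint name had a median contig length of 567 bases and a median of 15 UMIs, and the 159 chains named TRBV13-2 alone had 541 bases and 9 UMIs. With both names counted together, 9.53% of member clonotypes and 11.1% of others carried the segment, a ratio of 0.857 (exact counting interval 0.685 to 1.06). The part of the naming in the call for TRBV13-2 was not tested.

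Among J and C segments the changes were smaller. TRBJ2-1 was in 14.1% to 24.6% of member clonotypes and 10.8% to 16.97% of others and rose in 6 of 6 libraries (log2 change 0.55 ± 0.11 SE; edgeR adjusted p = 0.00015). Its call was lost under 1 of 16 alternatives, by cells (log2 change 0.35, edgeR adjusted p = 0.457). TRBJ1-5 and TRBJ1-6 both fell by 1.27 (SE 0.38 and 0.36; edgeR adjusted p = 0.011 and 0.0073), in 4 and 5 of 6 libraries. TRBJ1-5 was higher in members of LNP-P20-mAb 1 (3.51% and 2.40%) and LNP-P20-mAb 2 (2.67% and 1.93%), and of 16 alternatives 7 lost its call, among them the fits without LNP-Ctrl 1, 2 or 3 or LNP-P20-mAb 3, and 1, by cells, turned its sign (0.12). The call for TRBJ1-6 was lost under 6, among them DESeq2 and the fits without LNP-Ctrl 2 or 3. Of the first J cluster 6 of 7 segments could be tested, with 0 called higher and 2 lower and a median log2 change of -0.40, and of the second cluster 6 of 7, with 1 higher and 0 lower and a median of 0.16, where the median of all 157 segments was -0.03. The first cluster lies before TRBC1 and the second between TRBC1 and TRBC2. TRBC1 was on 25.4% ± 2.48 of member clonotypes and 31.3% ± 2.89 of others (SD, n = 6 libraries) and fell by 0.39 (SE 0.08; edgeR adjusted p = 0.00061), and TRBC2 was on 74.6% ± 2.48 and 68.3% ± 2.88 and rose by 0.16 ± 0.05 SE (edgeR adjusted p = 0.041). The TRBC1 call was lost under 2 of 16 alternatives, and by cells its change was -0.0257 (edgeR adjusted p = 0.985). The TRBC2 call was lost under 7 of 16 alternatives, including TMM scaling, DESeq2 and the fits without LNP-Ctrl 1, 2 or 3. By cells the TRBC2 change was -0.0824. LNP-P20-mAb 1 went the other way for both constant segments, with TRBC1 on 28.1% of member and 25.8% of other clonotypes. Neither TRBD1 (log2 change -0.08 ± 0.12 SE) nor TRBD2 (-0.31 ± 0.16 SE) passed the test (edgeR adjusted p = 0.93 and 0.43).

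The alpha chain showed 1 change. TRAV9-2 was in 2.35% to 5.26% of member clonotypes and 1.53% to 3.03% of others and was higher in 6 of 6 libraries (log2 change 0.92 ± 0.29 SE; edgeR adjusted p = 0.014). The call was lost under 7 of 16 alternatives (adjusted p up to 0.17), including DESeq2, cells, single-cell clonotypes and the fits without LNP-Ctrl 1, LNP-Ctrl 3 or LNP-P20-mAb 3. The highest and lowest other estimates of the alpha locus had wide errors. TRAV7-1 had a log2 change of 1.04 ± 0.73 SE, TRAV5-1 one of -2.11 ± 1.17 and TRAV5N-4 one of -2.03 ± 0.81, and of the J segments TRAJ35 had 0.94 ± 0.55, TRAJ4 0.61 ± 0.35, TRAJ45 -0.77 ± 0.41 and TRAJ47 -1.36 ± 0.56. None of these passed the test (edgeR adjusted p at or above 0.0996). TRAV copies with D or N in their names are nearly identical, so counts of single copies are uncertain.

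**Figure D4:**
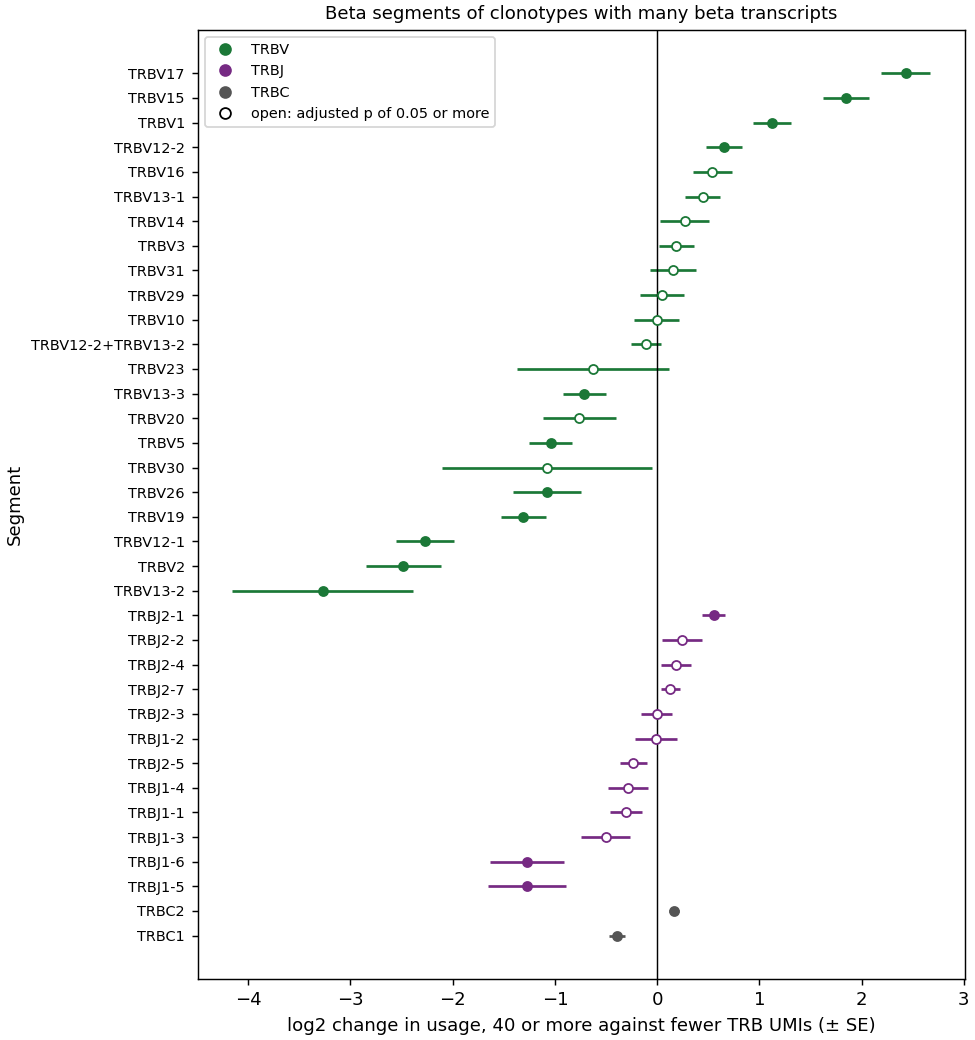
Log2 change in the share of clonotypes that use each TRBV, TRBJ and TRBC segment, cells with 40 or more TRB UMIs against the others of the same library, with standard errors from edgeR. TRBV17 at 2.43 and TRBV15 at 1.85 have the highest estimates, filled points passed an adjusted p of 0.05, and the low point of TRBV13-2 rests on 1 member clonotype.

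The beta loop differed little in length and more in composition. The mean length of the TRB CDR3 was 13.9 ± 0.0979 amino acids in member clonotypes and 14.0 ± 0.0398 in others (SD, n = 6 libraries), shorter in members in 6 of 6 libraries, with a difference of -0.134 ± 0.0722 residues (SD; exact sign-flip permutation p = 0.03125, adjusted p = 0.047). This call was lost with thresholds of 30 or 50 UMIs and within the same TRBV segment. The centre of the loop was less hydrophilic in members, at a mean Kyte-Doolittle hydropathy of -0.862 ± 0.0652 against -1.05 ± 0.0595 in others. Hydropathy was higher in members of 6 of 6 libraries, by 0.184 ± 0.0840 (SD, n = 6; exact sign-flip permutation p = 0.03125, adjusted p = 0.047), and by 0.0278 to 0.231 against others with the same TRBV. Counted by cells and not by clonotypes, the difference was 0.0281 (exact sign-flip permutation p = 0.81). Net charge of the loop differed by -0.0557 ± 0.0640 (SD, n = 6; exact sign-flip permutation p = 0.125) and the length of the TRA CDR3 by 0.00779 ± 0.0873 residues (exact sign-flip permutation p = 0.78).

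Clones differed widely in how many of their cells were members. There were 78 large clones of at least 20 cells, but only 60 distinct receptors, because 18 were large in both LNP-P20-mAb 1 and 2. They had member shares from 0% to 81.5% and median TRB UMIs from 5.5 to 63. In 25 of them (22 receptors), with 1433 cells, no cell reached 40 TRB UMIs, and in 11 (10 receptors) more than 40% did. All 7 large TRBV15 or TRBV17 clones (6 receptors) were among these 11, at 50.4% to 81.5%. The other 4 used TRBV3, TRBV13-1, TRBV1 and TRBV12-1. Between-clone differences made up 3.41% of the variance of log2 TRB UMIs in LNP-Ctrl 3, which had 2 large clones, and 30.6% to 52.9% in the other libraries.

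In LNP-Ctrl 1 the clone of TRBV20 and TRAV7D-2 gave the most members, 148 of its 468 cells, and the clone of TRBV13-1 and TRAV14D-3-DV8 gave 47 of 91. In LNP-Ctrl 2 the clone of TRBV17 and TRAV6N-6 had 44 members of 54 cells, 81.5% (exact interval 68.6% to 90.7%), and the clone of TRBV1 and TRAV5-4 had 23 of 54. LNP-Ctrl 3 was led by TRBV3 with TRAV6D-6, 12 of 51 cells, and TRBV20 with TRAV7-6, 5 of 14. The clone of TRBV15 and TRAV9-2 led both LNP-P20-mAb 1, with 133 of 264 cells, and LNP-P20-mAb 2, with 94 of 162. TRBV12-1 with TRAV12-2 came next in both, with 74 of 191 and 53 of 97 cells. LNP-P20-mAb 3 was led by TRBV3 with TRAV7D-2, 42 of 414 cells, and TRBV15 with TRAV12D-3, 35 of 49. The leading 2 clones of a library held 7.80% to 47.6% of its members, so a few receptors weigh heavily in any count of members by cells.

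The V segment did not fix the member share of a clone. Within LNP-Ctrl 1, 1 TRBV3 clone had 10 members of 21 cells and another had 0 of 21. Within LNP-P20-mAb 1, TRBV1 clones had 20 of 58 and 3 of 53, while large TRBV13-1 clones ranged only from 0% to 12%. The 2 contrasts that follow set clones of different libraries side by side, where library depth does not cancel. Of the TRBV13-1 clones, that with TRAV14D-3-DV8 had 51.6% members in LNP-Ctrl 1, and another had 0 of 253 cells in LNP-P20-mAb 1 and 0 of 137 in LNP-P20-mAb 2. Taken as 3 counts of the total, a count of 0 allows shares of up to 1.19% and 2.19% there, and the exact 95% upper bounds are 1.45% and 2.66%. Of the TRBV12-1 clones, that with TRAV12-2 had 38.7% and 54.6% in LNP-P20-mAb 1 and 2, and another had 0 of 92 in LNP-Ctrl 2, allowing up to 3.26% as 3 counts (exact upper bound 3.93%). Other large clones with no member included those of TRBV12-2+TRBV13-2 (102 cells) and TRBV13-3 (71 cells) in LNP-Ctrl 1, TRBV19 (57 cells) in LNP-Ctrl 2, TRBV13-3 (43 cells) in LNP-P20-mAb 1, TRBV26 (108 cells) in LNP-P20-mAb 2, and TRBV13-3 (50 cells) and TRBV20 (38 cells) in LNP-P20-mAb 3. The 25 clones with no member had median TRA UMIs of 6 to 20 per cell. The TRBV20 clone of LNP-P20-mAb 3 had a median of 9 TRB and 20 TRA UMIs per cell, and the TRBV17 clone of LNP-Ctrl 2 a median of 57 TRB and 7 TRA UMIs.

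Since LNP-P20-mAb 1 and 2 had clones in common, the same receptor was measured in both libraries. Over the 18 clonotypes of 20 or more cells in each, the member share had a Pearson r of 0.976 and a Spearman rho of 0.940, and it differed between the libraries by a median of 2.31 and at most 15.9 percentage points. Median TRA UMIs of these clones also ranked alike in both (rho 0.886), but within LNP-P20-mAb 1 the rank of a clone by TRB and by TRA UMIs had a rho of -0.240. Over all 78 large clones the corresponding rho between median TRB and TRA UMIs was -0.165. These correlations are descriptions over clones that share a library, and the clones are not replicates of a condition.

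**Figure D5:**
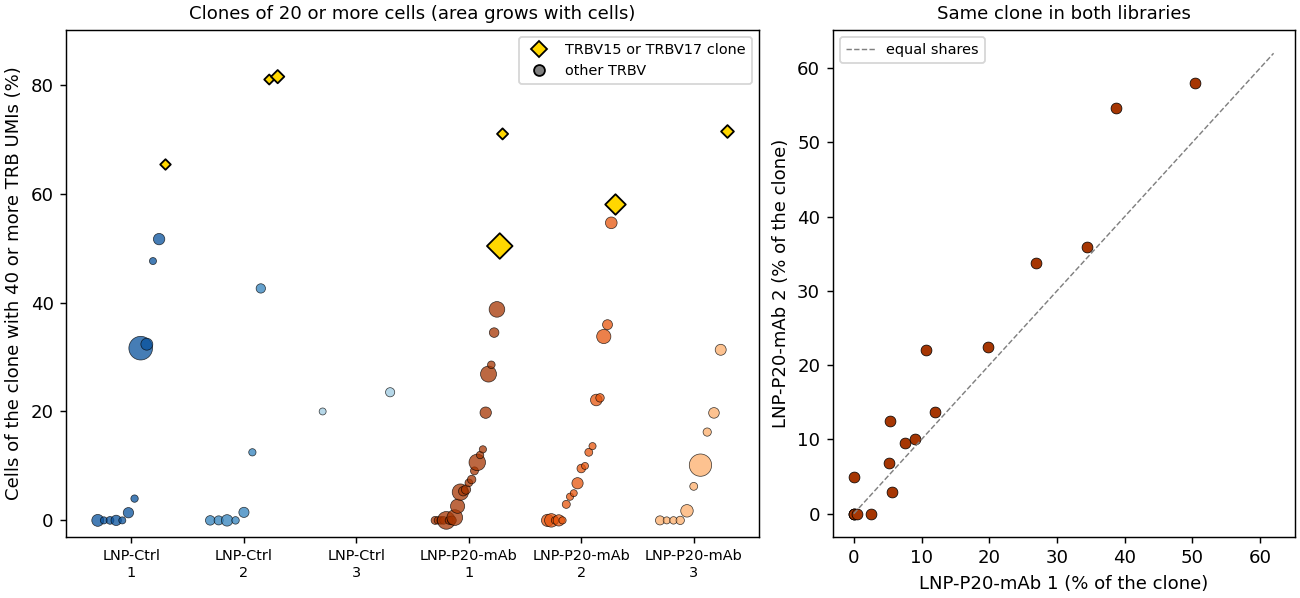
Left, percent of cells with 40 or more TRB UMIs in each clonotype of 20 or more cells, by library, with point area growing with the number of cells and TRBV15 or TRBV17 clones as diamonds. Right, the same percent for 18 clonotypes in LNP-P20-mAb 1 and in LNP-P20-mAb 2, where most points lie on or above the dashed line of equal shares. All 7 diamonds lie at 50.4% or more.

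Alpha loops recurred among members of different libraries. LNP-P20-mAb 1 and 2 share most member beta chains but count here as 2 libraries, so a loop in 2 libraries can be 1 shared clone. Of the TRA CDR3 loops on members, 840 were in 1 library, 49 in 2, 4 in 3 and 2 in 5, and these last 2 are described because of that recurrence, that is, after their values were seen. The loop of TRAV12D-3 and TRAJ5 was in all 6 libraries with 1 and the same base sequence, on 105 cells, of which 104 used TRBV15 and 74 were members. It was found with 5 TRBV15 loops, counted by their amino acids, and the TRBV15 clone that carried it had 17 members of 26 cells in LNP-Ctrl 1, 17 of 21 in LNP-Ctrl 2 and 35 of 49 in LNP-P20-mAb 3, each with a different beta loop. Members were 71.2% of the TRBV15 cells with this alpha loop, 40.3% of 732 TRBV15 cells with other alpha loops, and 20.6% of such cells in single-cell clonotypes. These shares are pooled over libraries, and the part of clone size and of library in this difference was not tested.

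The second recurring loop joined TRAJ26 to TRAV5-4 or to one of several TRAV14 copies, and in these versions and 1 with TRAV7D-2 the same amino acids were on 263 cells of 5 libraries, of which 262 used TRBV1 and 86 were members. It was encoded by several different base sequences and paired with 7 TRBV1 loops, counted by their amino acids. In LNP-Ctrl 2 its largest TRBV1 clone had 23 members of 54 cells, in LNP-P20-mAb 1 and 2 a shared clone had 20 of 58 and 23 of 64, and in LNP-P20-mAb 3 its largest clone had 15 of 76. Members were 32.8% of TRBV1 cells with this loop and 14.1% of 955 TRBV1 cells with others. Most cells with the loop were in the large clones just named. The part of clone size and of library in this difference was not tested. Both loops sat on V segments that rose among members, TRBV15 and TRBV1. They were chosen by recurrence among the same members, which favours such segments and high member shares, so they are no separate support for the segment calls.

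The comparison of treatments asked whether T cells with many beta transcripts differed between tumours given LNP-P20-mAb and LNP-Ctrl. With 3 libraries each, the exact permutation test over 20 assignments cannot give a p below 0.1. Clonotypes of 2 or more cells held 83.6% ± 16.0 of the members of LNP-P20-mAb libraries and 47.4% ± 14.3 of those of LNP-Ctrl libraries (SD, n = 3 each), and the groups did not overlap (exact permutation p = 0.1, adjusted p = 0.4 over 4 values). Large clones held 68.8% ± 24.7 and 26.5% ± 18.2 of members (n = 3 each; exact permutation p = 0.2), with the treatments overlapping. Median TRA UMIs were 10.3 ± 0.577 and 12.0 ± 1.73 (n = 3 each; exact permutation p = 0.3), and members with 2 alpha chains made up 15.9% ± 5.37 and 12.8% ± 2.64 (n = 3 each; exact permutation p = 0.6). With LNP-P20-mAb 1 and 2 averaged, the gap in the expanded share of members was 31.7 points (exact permutation p = 0.2).

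The distance between members and other barcodes passed no test of a difference between treatments. In clonotypes of 2 or more cells this distance was 19.8 ± 4.68 points under LNP-Ctrl and 8.29 ± 2.29 points under LNP-P20-mAb (n = 3 each; exact permutation p = 0.1, adjusted p = 0.3). For TRA UMIs over all cells it was 0.88 ± 0.25 and 0.43 ± 0.10 on the log2 scale, and for hydropathy 0.251 ± 0.0109 and 0.117 ± 0.0638 (n = 3 each; exact permutation p = 0.1 and adjusted p = 0.3 for both). These 3 distances did not overlap between the treatments. Within clonotypes the distance in TRA UMIs was 0.68 ± 0.26 and 0.63 ± 0.17 on the log2 scale and did overlap (n = 3 each; exact permutation p = 0.9). The expanded share of other barcodes was already 57.7% to 84.6% in LNP-P20-mAb and 10.4% to 47.9% in LNP-Ctrl libraries.

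No segment differed between treatments in its distance between members and others by edgeR's interaction term (0 of 157 called, 0%; 5 at an unadjusted p below 0.05, and 0 by DESeq2, with 2 at an unadjusted p below 0.05). Within members, 1 of 67 segments with 20 or more clonotypes was called between treatments (1.49%), with 0 higher and 1 lower in LNP-P20-mAb. This was TRBV3, found in 8.77%, 14.6% and 7.14% of the member clonotypes of LNP-Ctrl 1, 2 and 3 and, in the same order, 3.51%, 2.67% and 1.31% of those of the LNP-P20-mAb libraries, with no overlap (log2 change -2.21 ± 0.56 SE; edgeR adjusted p = 0.023). TRBV3 was also in 7.42% to 9.50% of the other clonotypes of LNP-Ctrl and 1.36% to 4.24% of those of LNP-P20-mAb libraries, and its interaction term was -0.49 ± 0.58 SE (edgeR adjusted p = 0.89). With LNP-P20-mAb 1 and 2 summed as 1 sample, or by DESeq2, 0 segments were called among members.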

How the data were processed

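Per the labels' protocols, sorted CD45-positive tumour cells, about 10000 per sample, went into droplet 5′ libraries with TCR enrichment. The authors deposited 1 line per assembled receptor chain, with read and UMI counts that are raw counts per chain. Cell Ranger 8.0.1 is in the submitters' processing notes, which give mouse builds no role, so no coordinates are printed. Libraries held 85830 to 145841 UMIs on TRA and TRB chains.

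Repeated lines of the same chain on a barcode were merged. Barcodes with 2 or more TRB or with 3 or more TRA chains were left out by the rule, and no doublet caller was run. The rule does not remove droplets with 2 cells of the same clone, or with a T cell and a cell without TRA and TRB chains. Whether the barcodes left out were doublets was not tested. A clonotype joined cells of a library whose TRB V segment, J segment and CDR3 bases were identical and which had a TRA chain in common. Members and lists were chosen with earlier results of these data known. Named segments are those past an adjusted p of 0.05, the 2 highest and 2 lowest estimates of each V and J locus, and the members of the D, C, J cluster, Vβ5 and Vβ8 lists. Named clones are the 2 with the most members in each library and, among those of 20 or more cells, the 2 with the highest and 2 with the lowest member share.

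Within-library differences were tested by exact sign-flip permutation over 64 flips, treatments by exact permutation over 20 assignments (10 with the pair averaged), all two-sided. Segments were tested with edgeR 4.0.16 in R 4.3.3 on distinct clonotypes, scaled by each column's number of clonotypes, for segments of 30 or more clonotypes (20 among members). Adjustment was by Benjamini-Hochberg, and the SE is the log2 change divided by the square root of F. DESeq2 1.42.0 was an alternative. On simulated counts for 157 segments by class, edgeR found 49.5% of the 2-fold changes and 83.7% of the 4-fold ones, with 0.472% false calls. Among members, for 67 segments, it found 24.9% and 68.8%, with 1.35% false calls. Figures and other steps used Python 3.11.15 with pandas 2.3.3, numpy 2.4.6, scipy 1.17.1 and matplotlib 3.10.9. RefSeq names and order are from GRCm38.p6.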

Additional observations from a re-analysis of the deposited data

Results flagged for a closer look

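Barcodes that the rule leaves out also carried high beta counts. Among 1844 barcodes with 2 TRB chains, 314 (17.03%) had 40 or more UMIs on the stronger chain, on average 20.95% ± 8.20 under LNP-P20-mAb and 14.8% ± 7.75 under LNP-Ctrl (SD, n = 3 each; exact permutation p = 0.4). In 248 of these 314 (78.98%) both chains used the same TRBV segment, most often TRBV1 (66) and TRBV3 (65), and the weaker chain had a median of 16.3% of the UMIs of the stronger.

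Of 1809 barcodes with a TRB and no TRA chain, 89 (4.92%) had 40 or more TRB UMIs, on average 8.35% ± 5.75 under LNP-P20-mAb and 3.15% ± 2.60 under LNP-Ctrl (SD, n = 3 each; exact permutation p = 0.3). The TRBV15 and TRBJ1-5 chain of the leading clone was on 26 of them in LNP-P20-mAb 1 and on 9 in LNP-P20-mAb 2.

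TRBJ1-2 was picked out by a search of the named segments for differences of opposite sign in the treatments. Its share of clonotypes was higher in members than in others in all 3 LNP-P20-mAb libraries, by 3.801 points on average, and lower in all 3 LNP-Ctrl libraries, with a mean difference of -1.49 points, a gap of 5.29 points. In LNP-Ctrl 2 the classes were nearly equal, at 12 of 213 member and 165 of 2916 other clonotypes. The segment was on 6 to 13 member clonotypes per library, and LNP-P20-mAb 1 and 2 share most member beta chains. The interaction term was 1.31 ± 0.43 SE on the log2 scale and did not pass the threshold (edgeR quasi-likelihood test, adjusted p = 0.37).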

How the results depend on the processing

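The larger numbers of alpha transcripts, of expanded cells and of cells in large clones among members kept their direction in 6 of 6 libraries at thresholds of 30 and 50 TRB UMIs, with the top 10% of each library as members, and with 2-TRB barcodes kept. With a library left out or LNP-P20-mAb 1 and 2 averaged, 5 samples remain and no sign-flip p can be below 0.0625. Without 1 library, the log2 ratio of TRA UMIs was 0.56 to 0.72, the gap in expanded share 11.9 to 15.6 points and that in large clones 12.8 to 15.7 points.

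The shorter TRB CDR3 of members lost its call at a threshold of 30 (-0.100 residues), at 50 (-0.120), by cells (-0.209) and within the same TRBV segment (-0.132). Hydropathy lost it by cells (0.0281). Net charge gained a call at 30 (-0.0549) and with the top 10% (-0.103). The TRA CDR3 length, not called, changed sign with shared barcodes left out (-0.000799), 2-TRB barcodes kept (-0.0149) and single-cell clonotypes (-0.0275), and ranged from -0.0158 to 0.0277 without 1 library. The share with 2 TRA chains was -1.14 points after thinning.

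Treatment differences of these distances, none of which could pass a test, moved beyond 1 SD as follows. For expanded share they were -7.68 at 30 and -7.14 with the top 10%. For hydropathy they were -0.0726 at 30, -0.189 at 50, -0.218 with the top 10% and -0.450 by cells. Those of 2 TRA chains were -1.47 at 50. Those of TRB length were -0.0934 with the top 10% and -0.578 by cells. TRA length gave 0.112 at 50, 0.0648 with the top 10%, -0.144 for single-cell clonotypes and 0.243 by cells, and net charge -0.102 with the top 10%, 0.0519 for single-cell clonotypes and 0.101 by cells.

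Segments called by class numbered 9 by DESeq2, 9 by cells, 10 at a threshold of 50, and 12 to 18 without 1 library. TRBV15, TRBV17, TRBV19, TRBV2 and TRBV5 were called under all 16 alternatives run. By cells TRBC2 had a log2 change of -0.0824 and TRBJ1-5 one of 0.12, and 13 segments differed between treatments (4 higher, 9 lower), with cells of a clone counted as independent. Among members, 0 segments were called by DESeq2 (2 at an unadjusted p below 0.05), by cells (27), with the pair summed (6), at 50 (1) or with 2-TRB barcodes kept (8), 3 at 30, and 0 to 2 without 1 library. LNP-Ctrl 1 left out gave 2, and LNP-P20-mAb 2 or 3 left out gave 0. TRBV3 had 0.53 by cells.

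Same-numbered libraries correlated at 0.110, 0.0296 and 0.187 in their deviations from the treatment means, so the numbers were not taken to pair them, and a fit with a replicate block called 2 segments among members. The cause of these changes was not tested. Keeping 2-TRB barcodes in the segment tests and comparing within TRBV segments were chosen after seeing the data. The top 10% began at 36 and 32 TRB UMIs in LNP-Ctrl 2 and 3 and at 41 to 49 in the other libraries, and the part of depth in this was not tested.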
